A study of Mus musculus with 6 samples.

Results

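The genes described here code for the machinery that transcribes nuclear and mitochondrial DNA in mouse astrocytes: subunits of the RNA polymerases, the general transcription factors of RNA polymerases II and III, the TBP-associated factors (TAFs) and the subunits of Mediator. They were chosen by symbol alone. A probe belonged to the group where its RefSeq accession mapped to a mouse symbol starting with Polr, Gtf2 or Gtf3, or with Taf or Med and then a digit. This gave 102 genes with 164 probes, of 32225 genes and transcripts on the array. The symbols use no measured value, but the group was put forward with this contrast in view. Its values are therefore a description, and no independent measure of the contrast was at hand.

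Expression was measured in primary astrocytes of C57BL/6 mice, a purchased culture from the cerebral cortex at embryonic day 18, with 6 Agilent microarrays of the whole mouse genome, each carrying 1 dye. The 3 miR-29 arrays held RNA from cells given a mixture of miR-29 precursors (the a, b and c forms, with most of the b form). The 3 control arrays held RNA from cells given a negative control precursor. Both groups were wild type, both were transfected with 80 nM of precursor 3 weeks after plating, and both were harvested 48 h later, with a stated transfection efficiency above 90%. The labels describe the 3 samples of a group as repeat extractions and name no separate cultures, so the standard errors cover only how these extractions differ, possibly for technical reasons.

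The transfected molecules carry 1 seed, the stretch by which a miRNA recognises its targets. The mature mouse sequences of RefSeq (build GRCm38.p6) follow because they are the agent of the comparison, with the seed (bases 2 to 8) in capitals. The genes of miR-29a and of 1 copy of miR-29b lie at chr6:31062673-31062694 and chr6:31063025-31063047 on the minus strand. Those of the other copy of miR-29b and of miR-29c lie at chr1:195037091-195037113 and chr1:195037600-195037621 on the plus strand. The labels name the human precursors.
miR-29a-3p: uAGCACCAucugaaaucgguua
miR-29b-3p: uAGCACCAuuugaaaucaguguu
miR-29c-3p: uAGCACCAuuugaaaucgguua

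Col3a1, a fibrillar collagen and an established miR-29 target, served as the check of the transfection. Its signal was 0.675, 0.799 and 0.63 on the miR-29 arrays, against 8.56, 8.16 and 7.8 on the control arrays, in units of the 75th percentile of the array. The groups lay far apart, with a log2 difference of -3.55 (SE 0.0975, n = 3 each). Of the 10 astrocyte markers, 10 were above background on all 6 arrays, and their summed signal was 89.1 to 98.1 on the miR-29 arrays, beside 60.1 to 63.8 on the control arrays. The 6 markers of fibroblasts and mural cells were also above background on all arrays, with sums of 459.0 to 498.0 on the miR-29 arrays, beside 308.0 to 346.0 on the control arrays. Of 7 neuronal markers, 6 were above background throughout (sums of 101.0 to 138.0 on the miR-29 arrays, beside 110.0 to 148.0 on the control arrays), as were 6 of 7 oligodendrocyte markers (sums of 9.33 to 9.8 on the miR-29 arrays, beside 7.64 to 12.3 on the control arrays), while Mog was never detected. Microglial markers summed to 3.17 to 3.41 on the miR-29 arrays, beside 4.23 to 4.75 on the control arrays, with 3 of 7 above background throughout and Aif1, Cx3cr1 and Ptprc never detected. Endothelial markers summed to 0.152 to 0.167 on the miR-29 arrays, beside 0.131 to 0.174 on the control arrays, with 2 of 5 above background throughout and Tek never detected. The sums are led by the brightest markers, and single markers moved both ways. Called higher and lower were 6 and 1 astrocyte markers, 3 and 2 of fibroblasts and mural cells, and 1 and 2 of neurons. Microglia had 1 and 2, the oligodendrocyte list 4 and 0, and the endothelial list 1 and 0. The part of these marker shifts in the results below was not tested, and in a culture measured in bulk fewer cells of a type and less RNA per cell cannot be told apart.

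The nuclear polymerases divide the work of transcription. Polymerase I makes the large ribosomal RNA, polymerase II makes messenger RNA, and polymerase III makes transfer RNA and other small RNAs. General factors bring each polymerase to its start sites: TFIID (TBP with its TAFs) and TFIIA, B, E, F and H for polymerase II, SL1 for polymerase I, and TFIIIA, TFIIIC and TFIIIB for polymerase III. Mediator, built from a head, a middle, a tail and a detachable kinase module, passes signals from DNA-bound activators to polymerase II. Most of these proteins are needed in every cell type, astrocytes included.

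Of the 102 genes, 98 passed the filter on dim probes and were tested. Med12l, Taf4b, Taf7l and Taf7l2 had no probe well above background on all 3 arrays of either group. In 97 of the 98 the probe used was above background on all 6 arrays. Polr2a, Polr2d, Taf1, Med6 and the other symbols of the rule without a matched probe, 9 in all, were not analysed here. A gene was called higher or lower where its adjusted p in a limma fit over all 19740 genes and transcripts was under 0.05. Differences are in log2 units, miR-29 minus control.

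With each array scaled to its 75th percentile, 54 of the 98 genes were called higher on the miR-29 arrays, beside 9 lower, while 35 were not called. Over all genes tested, 35.3% were called higher and 22.8% lower. The group's shares were 55.1% and 9.18%. The median difference over the members was 0.21, beside 0.07 over all genes, and 64 of 98 members lay above the median of all genes. Most differences were small. Among members detected in both groups 3 reached a 2-fold size (Polr3g, Med19 and Gtf2e2), and 77 stayed under 0.5 in log2 size, against a median standard error of 0.0574.

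The median of the members, taken on each array against the mean of the control arrays, was 0.20, 0.23 and 0.20 on the miR-29 arrays, against 0.04, -0.01 and -0.01 on the control arrays. The 3 miR-29 arrays lay together above the 3 control arrays. Control array 1 shared slide 1 with all 3 miR-29 arrays, and control arrays 2 and 3 were on slide 2. Within slide 1, where the 1 control array is assumed to vary like the miR-29 arrays, the median of the members was 0.19. With the slide as a block 45 members were called higher and 7 lower, beside 28.7% and 18.3% of all genes. The block gives each member the same difference as slide 1 alone, so it too rests on control array 1. Polr2e, Polr2f, Polr3a, Polr3f, Gtf2a1, Gtf2a1l, Gtf2b, Gtf3c5, Med11 and Med23 lost a call of higher with the block, and Med9, Med13 and Med26 a call of lower. Med18 was called higher and Med20 lower with the block and not without it.

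Scaling the arrays to the 6 detected types of spike-in RNA moved every difference by -0.25. On that scale 21 of the 98 members were called higher (21.4%) and 29 lower (29.6%), beside 15.4% and 37.7% of all genes. The members' median was -0.03, beside -0.18 over all genes. The distance between the 2 medians was 0.145 on both scales. With spike-ins and the slide block together, 11 members were called higher and 10 lower, beside 11.7% and 24.0% of all genes. Polr1a, Taf10, Taf15, Gtf2i and Med21, called higher on each scale without the block, were among those not called there. The 21 members higher with spike-ins were also higher by the 75th percentile, 9 were lower on both scales, and 0 switched from a call of higher to a call of lower. The same held over all genes, where the 3033 higher with spike-ins were also higher by the 75th percentile. Of all genes 4493 were lower on both scales and 0 switched, so this pattern is not particular to the members.

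**Figure D1:**
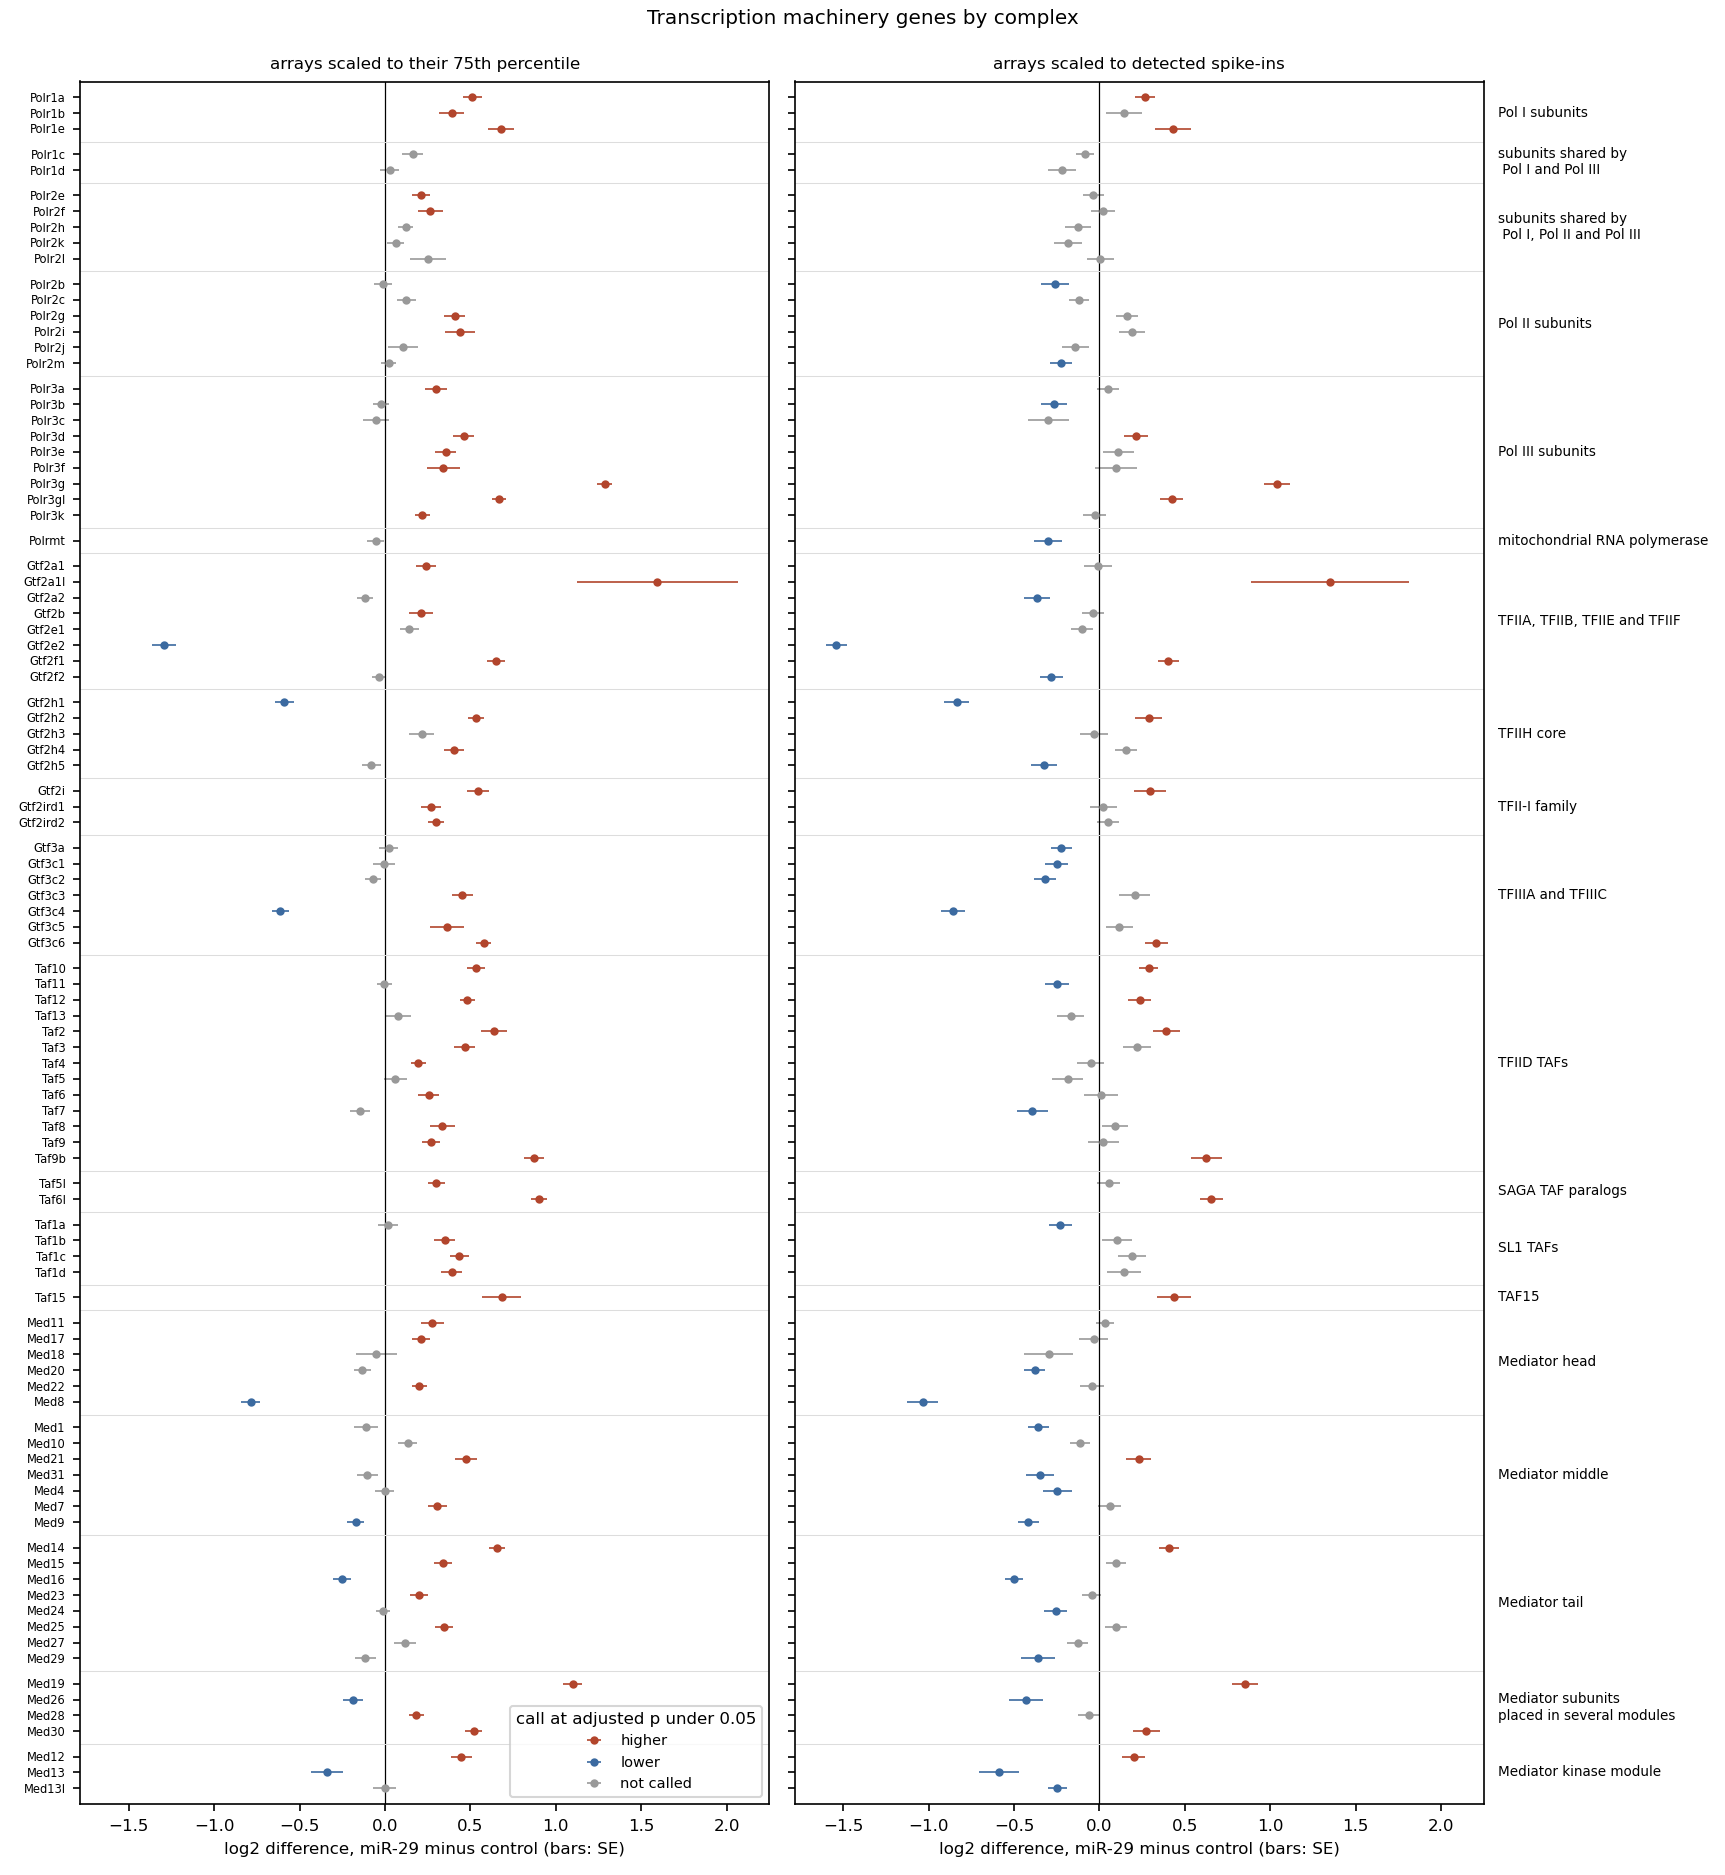
Log2 difference (miR-29 minus control, n = 3 arrays each) of tested genes, grouped by complex from top to bottom, with arrays scaled to the 75th percentile on the left and to spike-ins on the right. Points are estimates, bars are standard errors, and colours give the call at an adjusted p of 0.05. Polr3g and Med19 lie far to the right and Gtf2e2 and Med8 far to the left in both panels, and every point moves by -0.25 between the panels.

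**Figure D2:**
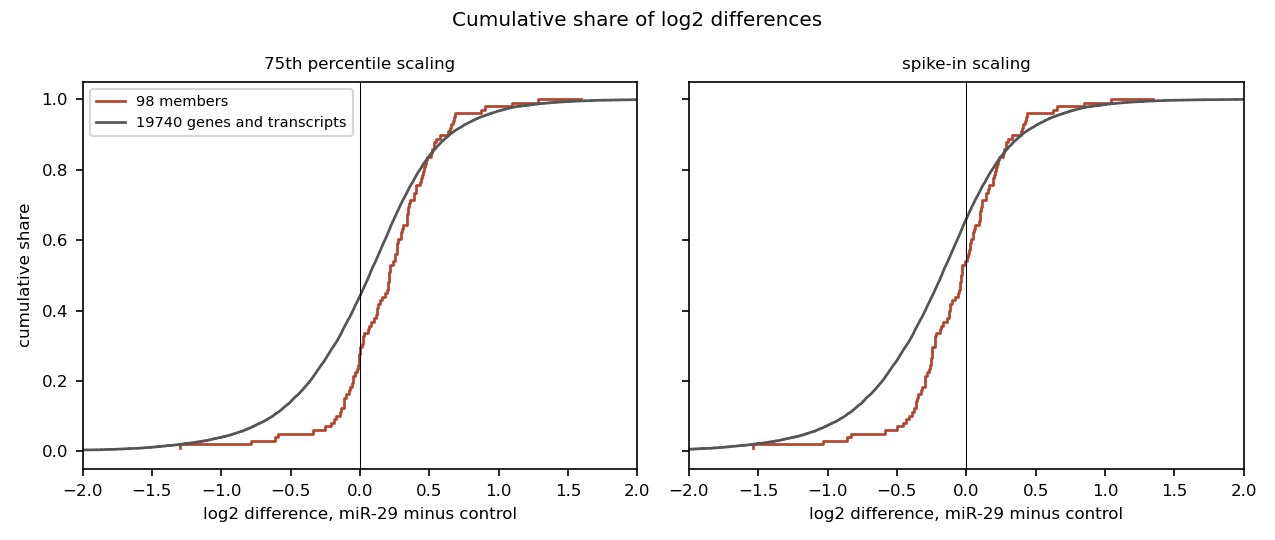
Cumulative share of log2 differences (miR-29 minus control, horizontal axis cut at -2 and 2) for the 98 members and for all 19740 genes and transcripts, on both scales. Through the middle of the range the curve of the members lies to the right of the other, with medians of 0.21 and 0.07 by the 75th percentile and of -0.03 and -0.18 by spike-ins.

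The counts per complex that follow stand beside shares over all genes of 35.3% higher and 22.8% lower by the 75th percentile. With spike-ins those shares are 15.4% and 37.7%. Each complex holds few genes, and whether any complex departs from these shares was not tested. Polymerase I had 3 subunits in the group that belong to it alone, and 3 of 3 were called higher. Polr1a, the largest subunit, which holds much of the active centre, had signals of 12.4, 12 and 12.3 on the miR-29 arrays, against 8.98, 8.66 and 8.12 on the control arrays. All miR-29 values exceeded all control values, and the difference was 0.51 (SE 0.0544), or 0.27 with spike-ins, where it was still called. Polr1e, which works in initiation and elongation beside the core, had 0.905, 0.891 and 1.05 on the miR-29 arrays, against 0.592, 0.582 and 0.601 on the control arrays. All miR-29 arrays were above all control arrays (0.68, SE 0.0752, spike-ins 0.43, called on both scales). Polr1b, the second-largest subunit, differed by 0.39 (SE 0.0742) and was called higher by the 75th percentile, with 0.15 and no call by spike-ins.

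Polr1c and Polr1d, shared by polymerases I and III, differed by 0.16 and 0.03 and were not called on either scale, although a second probe of Polr1d was called lower (-0.81). Of the 5 subunits shared by all 3 polymerases, Polr2e (0.21) and Polr2f (0.27) were called higher by the 75th percentile, and neither was called with spike-ins (-0.04 and 0.02) or with the slide block. Polr2h, Polr2k and Polr2l were not called on either scale.

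Among the 6 tested subunits particular to polymerase II, 2 were called higher and the other 4 were not called, with a median of 0.12. The share called higher was near the 35.3% of all genes. Polr2i, a small subunit with a part in start site choice and fidelity, had signals of 10.8, 10.7 and 10 on the miR-29 arrays, against 8.75, 7.24 and 7.32 on the control arrays. There was no overlap, with control array 1 nearest to the miR-29 arrays. The difference was 0.44 (SE 0.0876), 0.26 within slide 1, and 0.19 without a call by spike-ins. Polr2g, part of the stalk of the enzyme, differed by 0.41 on the first scale, where it was called, and by 0.16 with spike-ins, where it was not. Polr2b, the second-largest subunit, read 5.33, 5.71 and 5.4 on the miR-29 arrays, beside 5.6, 5.32 and 5.68 on the control arrays. These values interleave (-0.01, SE 0.053, not called), and the spike-in scale gave a call of lower (-0.26).

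Polymerase III gave the largest rise among the members detected in both groups. Of its 10 particular subunits 7 were called higher and 1 lower, with a median of 0.32, and 3 stayed called higher with spike-ins. Polr3g had signals of 2.05, 2.09 and 2.14 on the miR-29 arrays, against 0.861, 0.851 and 0.865 on the control arrays. The replicates lay tightly together and the groups were far apart, at 2.44-fold (1.29 in log2, SE 0.0431, spike-ins 1.04). Its other probes were also called higher, at 0.82 and 1.02.

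Polr3g and Polr3gl are alternative forms of 1 position in the enzyme, where they join the polymerase to its initiation factors. In human cells the form made from POLR3G is known for its abundance in stem and tumour cells, and the form made from POLR3GL is made widely. Polr3gl read 3.89, 3.82 and 3.8 on the miR-29 arrays, against 2.41, 2.4 and 2.43 on the control arrays. Its groups also stood clear of each other, at 0.67 (SE 0.0416) by the 75th percentile and 0.42 by spike-ins, called higher on both. Whether the 2 genes changed unequally was not tested. Of the remaining partners of their subcomplex, Polr3c differed by -0.05 and was not called on either scale. Polr3f was called higher by 0.34 by the 75th percentile, with 0.10 and no call by spike-ins. A second probe of Polr3f gave -0.20 without a call by the 75th percentile, and -0.44 with a call of lower by spike-ins.

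Neither of the large catalytic subunits of polymerase III was called higher with spike-ins. Polr3a, the largest, was called higher by 0.30 (SE 0.0643), a call that was lost with spike-ins (0.05) and with the slide block (0.20). Polr3b, the second-largest, read 0.996, 1.04 and 0.985 on the miR-29 arrays, beside 1.01, 1.02 and 1.04 on the control arrays, which overlap (-0.02, with spike-ins -0.27 and called lower). Polr3d and Polr3e, which pair in the enzyme, differed by 0.46 and 0.36 and were called higher, Polr3d also with spike-ins (0.21) and Polr3e not (0.11). Polrmt, the single-subunit polymerase of mitochondria, differed by -0.05 (SE 0.0495), was not called by the 75th percentile and was called lower with spike-ins (-0.30).

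The upstream sequences of 3 of the genes with large rises are shown for reference, 120 bases before the start of each in RefSeq's table for GRCm38.p6, as the strand of the gene reads. Capitals mark CCAAT and the ETS motif CCGGAAG on either strand. Polr3g lies at chr13:81711014-81711133 and Polr3gl at chr3:96594182-96594301, both on the minus strand, and Med19 at chr2:84678282-84678401 on the plus strand.
Polr3g: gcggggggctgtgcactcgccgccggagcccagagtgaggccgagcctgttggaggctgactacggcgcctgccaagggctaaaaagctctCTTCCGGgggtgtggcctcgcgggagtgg
Polr3gl: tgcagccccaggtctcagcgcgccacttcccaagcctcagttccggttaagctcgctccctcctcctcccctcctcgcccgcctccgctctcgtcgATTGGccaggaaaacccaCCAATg
Med19: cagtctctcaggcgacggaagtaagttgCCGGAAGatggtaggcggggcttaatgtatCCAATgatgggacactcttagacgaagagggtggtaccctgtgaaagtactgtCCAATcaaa

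The stretch of Polr3g holds the ETS motif on the opposite strand, that of Polr3gl holds CCAAT on each strand, and that of Med19 holds both motifs. Over the wider windows of the table (250 bases before to 50 after a start, 105 windows of 89 members), the GC box GGGCGG was present in 60.0%, against 35.7% of all 32851 windows, with both strands searched. The ETS motif CCGGAAG was in 33.3% of the members' windows and 8.86% of all windows, the E-box CACGTG in 20.0% and 7.15%, and the NRF1 motif GCATGCGC in 12.4% and 2.71%. The YY1 motif AAGATGGCG was in 6.67% and 1.4%, and TGACGTCA in 3.81% and 1.79%. Conversely CCAAT was in 30.5% and 37.4%, and TATAAA in 12.4% and 13.6%. Windows of members called higher and of members not called or called lower held the ETS motif in 33.3% of 57 and 35.6% of 45. The GC box was in 56.1% and 66.7%, the NRF1 motif in 10.5% and 15.6%, and TATAAA in 8.77% and 15.6%. TGACGTCA was in 3.51% and 4.44%, CCAAT in 33.3% and 28.9%, and the YY1 motif in 8.77% and 4.44%. The E-box was in 24.6% and 13.3%, which is 14 and 6 windows. Whether any motif differed between these windows was not tested. These are matches of letters, and windows of 1 gene can overlap.

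Among the general factors of polymerase II, TFIIE gave the largest fall of the whole group. Gtf2e2, its beta subunit, read 4.88, 4.8 and 4.4 on the miR-29 arrays, against 12.2, 11.7 and 10.7 on the control arrays. The groups were far apart (-1.29, SE 0.0722, spike-ins -1.54). Gtf2e1, the alpha subunit with which it pairs, read 4.01, 4.1 and 3.94 on the miR-29 arrays, beside 3.88, 3.57 and 3.47 on the control arrays. Its groups lay close together and it was not called on either scale (0.14, SE 0.0578, spike-ins -0.10). Whether the subunits differed from each other was not tested, here or for the pairs that follow.

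TFIIF and TFIIA also had subunits with unlike values by their brightest probes. Gtf2f1 was called higher on both scales (0.65, spike-ins 0.40). Gtf2f2, its partner, differed by -0.04 without a call by the 75th percentile and by -0.28 with a call of lower by spike-ins. A second probe of Gtf2f2 was called higher by 0.22 by the 75th percentile, like Gtf2f1, with -0.03 and no call by spike-ins. In TFIIA, which steadies TBP on DNA, Gtf2a1 was called higher by 0.24 (SE 0.0583) by the 75th percentile, with -0.01 and no call by spike-ins and no call with the slide block. Gtf2a2 differed by -0.12 without a call, and by -0.36 with a call of lower by spike-ins, and its 2 other probes were called lower (-0.30 and -0.29). Gtf2b, the factor that links TBP to the polymerase, was called higher by 0.21 (SE 0.0692) by the 75th percentile, with 0.09 and no call under the slide block and -0.04 and no call by spike-ins.

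Gtf2a1l, a paralog of Gtf2a1 known from the testis, was not well above background on any control array and is the only tested member of that kind. Its signals were 0.024, 0.0315 and 0.0208 on the miR-29 arrays, beside 0.0115, 0.00389 and 0.0127 on the control arrays. With the control arrays set to the dimmest level that counts as detected, the miR-29 arrays were 1.42-fold higher. That value holds for the background subtraction of the deposited signal only. It entered the fit only through the miR-29 arrays, its fitted difference of 1.59 (SE 0.472) was 0.13 and not called after normexp background correction, and it was not called with the slide block.

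TFIIH opens the DNA at the start site and also works in DNA repair. Of its 5 core subunits in the group 2 were called higher and 1 lower. Gtf2h1 read 1.18, 1.22 and 1.2 on the miR-29 arrays, against 1.92, 1.73 and 1.78 on the control arrays. The groups were well separated (-0.59, SE 0.0555, spike-ins -0.83, lower on both). Gtf2h2 and Gtf2h4 were called higher by 0.54 and 0.40, Gtf2h2 also with spike-ins (0.29) and Gtf2h4 not (0.16).

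The TFII-I family, genes that in humans lie in or beside the region deleted in Williams syndrome, was called higher in 3 of 3. Gtf2i, a factor that binds both core promoters and upstream elements, had 2.84, 2.85 and 3.09 on the miR-29 arrays, against 2.05, 1.89 and 2.08 on the control arrays. Every miR-29 array was above every control array (0.55, SE 0.0633, spike-ins 0.30, called on both). Gtf2ird1 and Gtf2ird2 differed by 0.27 and 0.30 and were not called with spike-ins (0.02 and 0.05).

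Of the 7 genes of TFIIIA and TFIIIC 3 were called higher and 1 lower, beside 35.3% and 22.8% of all genes, with a median of 0.02. Gtf3c4, a TFIIIC subunit with reported histone acetyltransferase activity, had 0.917, 0.894 and 0.94 on the miR-29 arrays, against 1.45, 1.37 and 1.39 on the control arrays. The groups were separate (-0.61, SE 0.0486, spike-ins -0.86), and its second probe was called lower too (-1.10). Gtf3c6, Gtf3c3 and Gtf3c5 were called higher by 0.58, 0.45 and 0.36, Gtf3c6 also with spike-ins (0.33) and the others not (0.21 and 0.12). Gtf3a, which binds the genes of a small ribosomal RNA, and Gtf3c1, the largest TFIIIC subunit, were not called by the 75th percentile (0.02 and -0.01) and were called lower with spike-ins (-0.22 and -0.25).

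**Figure D3:**
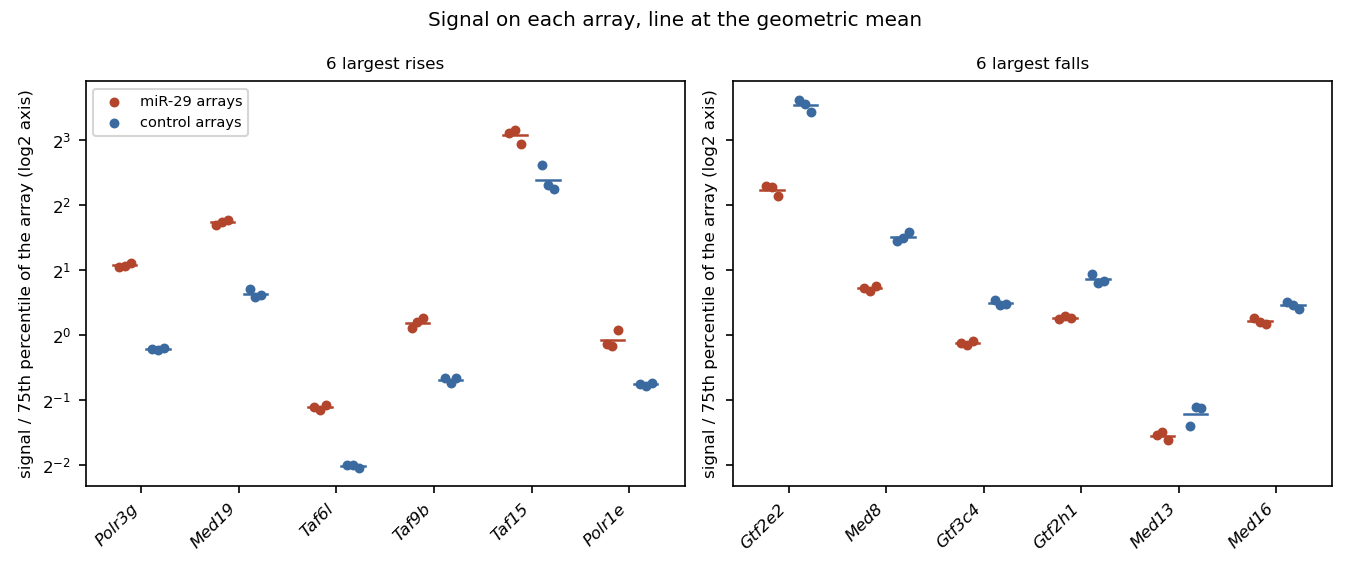
Signal on each array, as a multiple of the array's 75th percentile on a log2 axis, for the 6 members with the largest rises and the 6 with the largest falls among those detected in both groups. Points are arrays (3 miR-29, 3 control) and lines are geometric means. Only called members without overlap between the groups were eligible, so the lack of overlap was fixed by the choice. The narrowest gap was at Med13 (0.355 at the highest on the miR-29 arrays, beside 0.379 at the lowest on the control arrays).

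Of the 20 tested TAFs 15 were called higher and the other 5 were not called, with a median of 0.34. With spike-ins 6 were higher and 3 lower, and the median was 0.10. In TFIID itself 9 of the 13 tested TAFs were called higher, and 4 of them stayed so with spike-ins: Taf10, Taf12, Taf2 and Taf9b. Taf10, which TFIID shares with the SAGA coactivator complex, read 23.8, 22.8 and 22.8 on the miR-29 arrays, against 16.8, 15.7 and 15.4 on the control arrays. The ranges were clear of each other (0.53, SE 0.0528, spike-ins 0.29). Taf2, which contacts DNA at the start site, and Taf12, a histone-fold TAF, were called higher by 0.64 and 0.48 (spike-ins 0.39 and 0.24). Taf3, which reads a histone mark of active promoters, and Taf8, which joins Taf10 to TFIID, were called higher by 0.47 and 0.34 and not with spike-ins (0.22 and 0.09). Taf13, another histone-fold TAF, was not called on either scale (0.08 and -0.17), and Taf11, its partner, was not called by the 75th percentile and was called lower with spike-ins (-0.25).

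Several TAFs exist as pairs of paralogs. Taf9b, the paralog of Taf9, had 1.08, 1.14 and 1.19 on the miR-29 arrays, against 0.634, 0.596 and 0.632 on the control arrays. The groups stood apart (0.87, SE 0.0562, spike-ins 0.63), and a second probe gave 0.82. Taf9 was called higher by 0.27 (SE 0.054) by the 75th percentile and not with spike-ins (0.02). Its probes differed more than those of any other member with several probes: 2 gave 0.27 and 0.26, and the other gave -0.88, not called by the 75th percentile and called lower with spike-ins. The mean of its 3 probes was -0.12 and not called.

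Taf6l and Taf5l belong to SAGA, where they take the places that Taf6 and Taf5 hold in TFIID. Taf6l had 0.465, 0.449 and 0.471 on the miR-29 arrays, against 0.251, 0.249 and 0.242 on the control arrays. The replicates were close and the groups clear of each other (0.90, SE 0.0455, spike-ins 0.66). Taf6 was called higher by 0.26 (SE 0.0631) by the 75th percentile, with 0.01 and no call by spike-ins. Taf5l was called higher by 0.30 on the first scale and not with spike-ins (0.06), and its second probe gave 0.05 without a call.

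Taf5 was the 1 member whose probes were called in opposite directions. Its brightest probe gave 0.06 (SE 0.0678, not called on either scale), another gave 0.25 and was called higher, and the last gave -0.24 and was called lower. With spike-ins the probe called higher lost its call and the probe called lower kept it. Taf4, a structural TAF, was called higher by 0.19 (SE 0.044) by the 75th percentile, while spike-ins gave -0.05 and a second probe -0.09, both without a call. Taf7, which can restrain initiation, differed by -0.15 without a call and by -0.39 with a call of lower by spike-ins. The paralogs Taf4b and Taf7l were not tested.

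The 4 TAFs of SL1, the polymerase I factor, had a median of 0.37, and 3 were called higher by the 75th percentile. With spike-ins these 3, Taf1b, Taf1c and Taf1d, differed by 0.10, 0.19 and 0.14 and were not called. Taf1c read 0.908, 0.901 and 0.963 on the miR-29 arrays, against 0.712, 0.649 and 0.688 on the control arrays. The lowest miR-29 array was above the highest control array (0.44, SE 0.0573). Taf1a differed by 0.02 without a call, and by -0.23 with a call of lower by spike-ins.

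Taf15, an RNA-binding protein that is found with part of TFIID, had signals of 8.62, 8.9 and 7.63 on the miR-29 arrays, against 6.1, 4.91 and 4.73 on the control arrays. Control array 1 lay between the miR-29 arrays and the other control arrays. The difference was 0.68 (SE 0.116), was 0.46 within slide 1 (a single control array), and spike-ins gave 0.44. With spike-ins and the slide block together it was 0.27 and not called. A second probe gave 0.72.

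Of the 28 tested subunits of Mediator 13 were called higher, 5 lower and 10 were not called, with a median of 0.13. Over all genes 35.3% were higher and 22.8% lower. With spike-ins 5 subunits were higher and 12 lower (median -0.12), beside 15.4% and 37.7% of all genes. Med19, a subunit that in yeast steadies the contact with polymerase II, had 3.22, 3.34 and 3.38 on the miR-29 arrays, against 1.63, 1.5 and 1.52 on the control arrays. The groups were wide apart, at 2.14-fold (1.10 in log2, SE 0.0541, spike-ins 0.85), and its second probe was called higher by 0.70. Med14, the backbone that joins the modules, read 5.38, 5.28 and 5.24 on the miR-29 arrays, against 3.5, 3.36 and 3.25 on the control arrays. These groups did not overlap either (0.65, SE 0.0487, spike-ins 0.41, called on both), and its 2 other probes were called higher by 0.35 and 0.43.

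In the head, which binds the polymerase, 3 of 6 were called higher and 1 lower. Med8 had 1.65, 1.59 and 1.68 on the miR-29 arrays, against 2.71, 2.79 and 3.0 on the control arrays. Its fall was the second largest in the group and the groups were far apart (-0.79, SE 0.0576, spike-ins -1.03). Med17, a central head subunit, was called higher by 0.21 (SE 0.0513) by the 75th percentile, with -0.03 and no call by spike-ins. Med11 and Med22, which pair in the head, were called higher by 0.28 and 0.20 on the first scale, and neither was called with spike-ins (0.03 and -0.04).

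In the middle module 2 of 7 were called higher and 1 lower, beside 35.3% and 22.8% of all genes. Med21, a small subunit of the module's hinge, had 2.73, 2.58 and 2.58 on the miR-29 arrays, against 2.0, 1.75 and 1.93 on the control arrays. The groups did not overlap (0.48, SE 0.0654, spike-ins 0.23, called on both). Med1, the subunit that nuclear receptors bind, differed by -0.11 (SE 0.0685) without a call, and by -0.36 with a call of lower by spike-ins. Another of its probes was called higher by 0.46, and that probe was not called with spike-ins. Med7, the partner of Med21, was called higher by 0.31 and not with spike-ins (0.06). Med9 was called lower by -0.17, and by -0.42 with spike-ins.

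Of the 4 subunits that are placed in several modules 3 were called higher and 1 lower. Beside Med19, Med30 was called higher on both scales (0.52 and 0.27), and Med28 was called higher by 0.18 by the 75th percentile, with -0.06 and no call by spike-ins. Med26, which brings elongation factors to Mediator, was called lower by -0.19, and by -0.43 with spike-ins.

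In the tail, where activators dock, 4 of 8 were called higher and 1 lower. Med16 had 1.2, 1.14 and 1.12 on the miR-29 arrays, against 1.42, 1.38 and 1.32 on the control arrays. The gap between the groups was narrow (-0.25, SE 0.0532, spike-ins -0.50), and with the mean of its probes the difference was -0.18 and not called. Beside Med14, Med15, Med25 and Med23 were called higher by 0.34, 0.34 and 0.20, and none of these 3 was called with spike-ins.

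The kinase module can bind Mediator and keep it off the polymerase. Med12, which activates its kinase, had 5.17, 4.81 and 4.96 on the miR-29 arrays, against 3.89, 3.47 and 3.62 on the control arrays. The groups did not overlap (0.45, SE 0.0618, spike-ins 0.20, called on both). Med13, which ties the module to Mediator, had 0.343, 0.355 and 0.325 on the miR-29 arrays, against 0.379, 0.463 and 0.46 on the control arrays. Control array 1 lay next to the miR-29 arrays: the difference of -0.34 (SE 0.0923) was -0.15 within slide 1 and not called there, and it also lost its call without miR-29 array 1 (-0.35) or 3 (-0.31) and without control array 2 (-0.29) or 3 (-0.30). Its paralog Med13l had overlapping groups (4.4, 4.11 and 3.99 on the miR-29 arrays, beside 4.35, 4.29 and 3.89 on the control arrays) and no call, with a second probe called lower (-0.46) and a call of lower with spike-ins (-0.25).

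Probes of the same gene gave a further view of how firm these values are. Of the 43 members with several kept probes, 16 had all of them called higher, 1 (Gtf3c4) had all called lower, 17 had some called and in 1 direction only, 8 had none called and 1 (Taf5) had probes called in opposite directions. The median distance between a gene's highest and lowest probe was 0.18 in log2 and the largest 1.15 (Taf9). The other probes could also give larger differences than the one used, as for Taf2 (0.64 and 1.25) and Med28 (0.18 and 0.70). Both larger values came from dim probes. Mean signals on the miR-29 and control arrays were 0.0748 and 0.0316 for that of Taf2 (SE 0.219). For that of Med28 they were 0.0495 and 0.0305, beside 16.7 and 14.7 for the probe used.

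**Figure D4:**
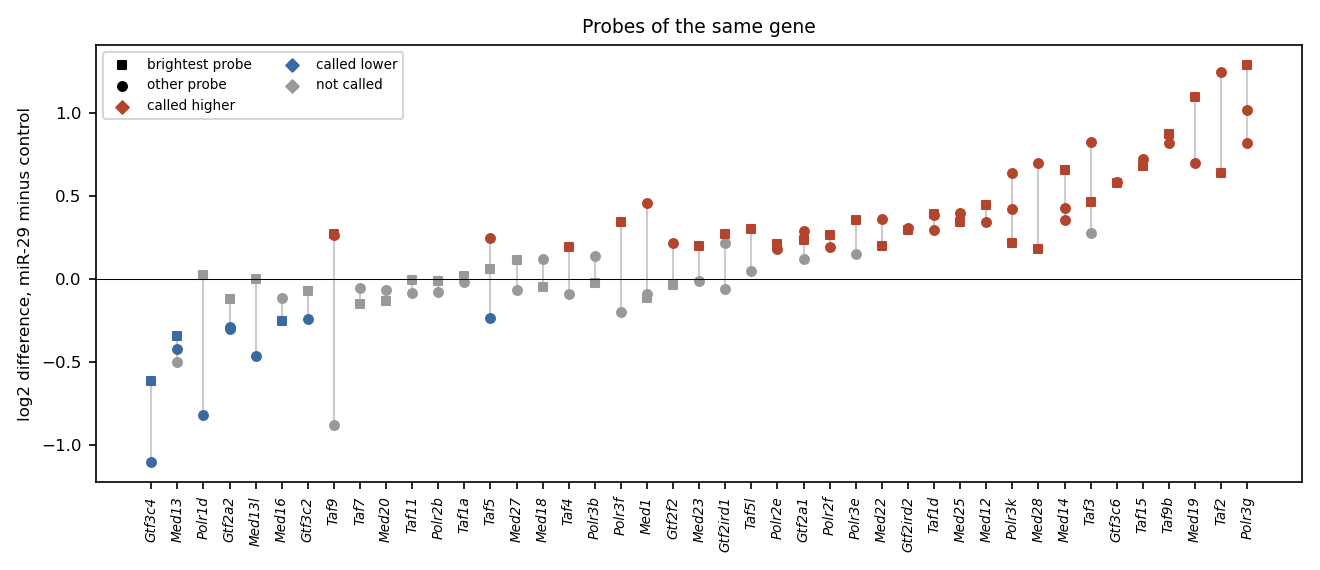
Log2 difference (miR-29 minus control) of each kept probe of the 43 members with several, ordered by their mean. Squares are the brightest probe, circles the others, grey lines span a gene's probes, and colours give the call at an adjusted p of 0.05. The probes of Polr3g, Med19 and Gtf3c4 lie on 1 side of zero, and those of Taf5 and Taf9 on both.

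The members work with proteins whose genes carry other names, and 55 of 56 such genes on a list drawn up for this purpose were tested. By the 75th percentile 27 were called higher, 8 lower and 20 were not called, with a median of 0.22. Over all genes 35.3% were higher and 22.8% lower on that scale. With spike-ins 14 were higher and 17 lower, beside 15.4% and 37.7% of all genes, and the median was -0.03. With the slide block as well, 8 were higher and 10 lower, beside 11.7% and 24.0% of all genes.

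Tbp, the TATA-binding protein at the heart of TFIID, SL1 and TFIIIB, had 0.197, 0.217 and 0.217 on the miR-29 arrays, against 0.294, 0.313 and 0.342 on the control arrays. Its groups were separate (-0.59, SE 0.0767, spike-ins -0.83), and it was called lower on both scales. Bdp1, a TFIIIB subunit, was called lower by -0.52 on the same scale and with spike-ins (-0.77), and Brf1, which joins TBP there, was not called on either (0.13 and -0.12).

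Further subunits of polymerase I stood beyond those that carry its symbol. Twistnb, in its stalk, had 1.56, 1.31 and 1.17 on the miR-29 arrays, against 0.635, 0.511 and 0.458 on the control arrays. Values varied within both groups, falling in replicate order in each, and the groups stayed apart (1.34, SE 0.157, spike-ins 1.09). Cd3eap, the partner of Polr1e, was called higher by 0.79 (spike-ins 0.55), and Znrd1, a small subunit, was not called by the 75th percentile (0.04) and was called lower with spike-ins (-0.21).

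Of the mitochondrial factors that work with Polrmt or its transcripts, Tfb1m, which methylates mitochondrial ribosomal RNA, gave the largest difference on the list. Its signals were 2.36, 2.4 and 2.24 on the miR-29 arrays, against 0.831, 0.77 and 0.781 on the control arrays. The groups were far apart (1.55, SE 0.0549, spike-ins 1.31). Tfam and Tfb2m, which start transcription there, were not called on either scale (0.06 and 0.08 by the 75th percentile). The kinase partners of Med12 and Med13, Cdk8 and Ccnc, were called higher by 0.22 and 0.50, Ccnc also with spike-ins (0.25) and Cdk8 not (-0.03). Cdk7, also on the list, was not called by the 75th percentile (-0.08) and was called lower with spike-ins (-0.32).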

How the data were processed

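Per the file headers, the authors' scanner files were made with Agilent Feature Extraction 10.7.3.1 (10.7 in the submitters' processing notes), and the deposited intensity is a background-subtracted, detrended Cy3 signal on a linear scale, not normalized between arrays. The series value table, also deposited, gives this intensity multiplied by 1 constant per array (2.627 to 3.427), linear and not centred, with the rule not given in the sources used here and medians of 149.3, 155.4 and 148.8 on the miR-29 arrays, beside 146.3, 164.8 and 162.2 on the control arrays. Other columns used from the deposited files are 0 or 1 flags. There were 0 columns of other samples.

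Control and outlier spots were left out, spots of 1 probe were averaged, and signals under 1 were set to 1. Values were log2 of the signal minus the array's 75th percentile (501.2 to 662.7), or scaled to the 6 detected of 10 spike-in types, which assumes equal RNA input. Probes well above background on all 3 arrays of a group were kept (26427 of 41174), and 61.94% to 66.82% of probes were above background per array. Pearson correlations over the brightest kept probe of each gene were 0.994 to 0.998 within a group and 0.975 to 0.985 between the groups. Only probes with a value on every array entered them. Accessions of 26933 probes matched a symbol of the RefSeq table (GRCm38.p6) and 14241 matched none; the array grid is on another build, so its coordinates were not used. A gene was represented by its brightest kept probe.

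In R 4.3.3, limma 3.58.1 (lmFit, then eBayes) compared the groups, and its two-sided p-values were adjusted by Benjamini-Hochberg over all 19740 genes and transcripts. The fit was tested on simulated data. The number of arrays limits the precision.

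The members and lists were chosen with earlier results of these data known. Genes named by rule were the 6 largest rises and falls among called members without overlap that were detected in both groups, a fixed set of core subunits, paralog pairs, the member with the largest difference in each complex, and members with probes called in opposite directions. Other members are named to account for each complex. Of the partner genes, Tbp, Cdk7, Cdk8, Ccnc and Tfam were also named by rule, and the rest were named after their values were seen. Alternatives covered scaling, background correction (normexp with an offset of 50, on median spot and background signals, as mean signals were not used here), the dim-probe filter, the probe chosen, the variance model, slide, replicate number, each array left out, the deposited table and a threshold of 0.01. Spike-in scaling together with the slide was added after seeing the data. The values of 1 member are not reported here, though it is counted.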

Additional observations from a re-analysis of the deposited data

How the results depend on the processing

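Scaling decided most. Spike-in scaling moved the members' counts to 21 higher and 29 lower (median -0.033), those of all genes to 3033 and 7450, and those of the partner genes to 14 and 17. It turned the sign of 24 members, 9 of them called by the 75th percentile. Among the members named by rule these include Gtf2b (-0.037), Gtf3a (-0.223), Med17 (-0.034), Taf4 (-0.051) and Gtf2a1 (-0.008). With all spike-in spots, 21 members were higher and 17 lower (median 0.028), with 3313 genes and 12 partners higher. Spike-in scaling with the slide block left 11 members and 8 partners higher, and within slide 1 it left 11 and 6. The members' median was 0.168 after quantile normalization, and 0.188 with the slide block and within slide 1. The block and slide 1 alone give each member the same difference, set against control array 1, and they differ only in the variance used. Members called lower numbered 5 with no filter, within slide 1 and at a threshold of 0.01. Testing every probe called 17 member probes lower, and 41 partner probes higher and 14 lower. The mean of its probes turned Taf9 (-0.115). The cause of these moves was not tested, beyond the number of probes or arrays used.

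Leaving out 1 array at a time gave 46 to 62 members higher and 5 to 12 lower (median 0.2 to 0.236), 24 to 29 partners higher and 7 to 8 lower, and 5674 to 7423 genes higher and 3674 to 5735 lower. Members called lower numbered 5 without miR-29 array 1. After removal of the group means, correlations of same-numbered arrays were 0.132, 0.094 and 0.245, and those of other pairs were -0.227 to 0.035. Each array correlated best with the array of its own number. Whether the replicate numbers mark paired samples was not tested, and the main fit did not pair them. With the replicate number as a block, 54 members were higher and 9 lower (median 0.213), with 29 partners higher and 7 lower. Of the 32 called among 42 named members tested, 16 kept their call under all alternatives that changed 1 choice: Polr3g, Polr3gl, Polr1a, Polr1e, Med8, Med14, Med19, Med21, Taf6l, Taf9b, Taf10, Taf15, Gtf2e2, Gtf2h1, Gtf2i and Gtf3c4. With spike-in scaling and the slide block together, and within slide 1 on that scale, 11 of the 16 kept it, and Polr1a, Taf10, Taf15, Gtf2i and Med21 did not. No signal was at saturation, and dim probes limit Gtf2a1l, some second probes such as those of Taf2 and Med28, and the genes that were not tested.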

Other observations

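Factors that act after initiation were also among the partner genes. Rtf1, a subunit of the PAF complex that travels with polymerase II, had signals of 10.8, 10.2 and 9.33 on the miR-29 arrays, against 5.21, 4.18 and 3.4 on the control arrays. The groups did not overlap (1.26, SE 0.158, 0.95 within slide 1, spike-ins 1.02). Its fellow subunits Ctr9 and Paf1 were called higher by 0.48 and 0.46 by the 75th percentile and by 0.24 and 0.22 with spike-ins, Cdc73 by 0.36 by the 75th percentile and not with spike-ins (0.11), and Leo1 was not called on either (0.09 and -0.15). Supt5, a pausing and elongation factor, was called higher by 0.64 (spike-ins 0.40), while Supt4a, with which it pairs, was called lower by -0.26 (spike-ins -0.51).

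Parts of the P-TEFb system, the kinase that releases paused polymerase II, went different ways. Larp7, a protein of the RNA-bound inhibitory form, had 5.07, 4.29 and 3.58 on the miR-29 arrays, against 2.56, 2.0 and 1.57 on the control arrays (1.09, SE 0.208, 0.74 within slide 1, spike-ins 0.85). Its values spread widely within each group, falling in replicate order in both, without overlap between the groups. Ccnt1, the cyclin of the kinase, and Hexim1, its inhibitor, were called lower by -0.49 and -0.36 (spike-ins -0.73 and -0.61). Cdk9, the kinase itself, was called higher by 0.22 by the 75th percentile, with -0.02 and no call by spike-ins.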
